A study of Mus musculus with 4 samples.

Results

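The genes described here are 9 genes of glycogen synthesis and breakdown: Ppp1r3b, Ppp1r3c, Ppp1r3d and Ppp1r3g, which encode targeting subunits of protein phosphatase 1, and Gys2, Gyg, Pygl, Gbe1 and Ugp2, which encode enzymes. They were chosen by name, as the gene named on the array or by the probe's accession, and with earlier results of these data known. They hold 12 of 41174 gene probes and 9 of 28786 named genes or transcripts. Liver RNA of C57BL/6J mice, an inbred laboratory strain, came from mothers under food deprivation (FD), control mothers, fetuses of the FD condition and control fetuses. Per the design text each pool combined 5 to 10 animals, and FD and control pools of mothers, or of fetuses, shared 2 two-colour Agilent arrays with the dyes swapped. The first array of a comparison had FD in Cy5 and control in Cy3, and the second had the reverse. The length of the deprivation, the fetal stage and the sexes are not given in the labels, and their housing text gives free access to chow for animals in general.

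The labels number the pooled samples of a comparison 1 and 2, but that number goes with the dye orientation and the design text says that the pooled RNA was dye-swapped. The arrays of a comparison were therefore taken as the same pools hybridised again, which the labels do not settle, and counted as 1 sample per condition, so no p-value is given. A gene was called changed when the mean of both arrays passed 2-fold and neither array alone was below 1.5-fold in that direction. Values are log2 ratios of FD over control, or log2 levels, the normalised brightness of a probe in one channel. All 9 genes were well above background in all 8 channels, and no gene spot was saturated. Across all genes the spread of a single array's log2 ratio (SD from the arrays' disagreement) was 0.163 in mothers and 0.148 in fetuses. The liver label was borne out by the 10 hepatocyte markers, all well above background in every channel, with median levels of 14.83 to 15.54.

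Liver stores glucose as glycogen after a meal and releases it between meals. Glycogenin starts a chain, glycogen synthase lengthens it with glucose from UDP-glucose, and a branching enzyme adds branch points; glycogen phosphorylase shortens it. Synthase is active and phosphorylase inactive when dephosphorylated, and protein phosphatase 1 does this where a targeting subunit holds it on the glycogen particle. The targeting subunits differ in where they are made and in how hormones and feeding regulate them.

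To show the DNA beside the values, the RefSeq promoter windows (assembly GRCm38.p6, 250 bases before to 50 after the gene start) are printed for the genes that changed in mothers or differed between control mothers and control fetuses and have a window. The table held windows for 7 of the 9 genes; Ppp1r3b and Gys2 were not among them. Motifs searched on both strands were the cAMP response element core (TGACG), the E-box (CACGTG), a forkhead site (GTAAACA), a nuclear receptor core (AGGTCA), a glucocorticoid receptor core (AGAACA) and the TATA box (TATAAA). Capitals mark every match. The windows lie at chr13:35967656-35967955 on the plus strand for Ppp1r3g, and on the minus strand at chr19:36736555-36736854 for Ppp1r3c, chr12:70227634-70227933 for Pygl, chr2:178414414-178414713 for Ppp1r3d and chr3:20155067-20155366 for Gyg.
Ppp1r3g: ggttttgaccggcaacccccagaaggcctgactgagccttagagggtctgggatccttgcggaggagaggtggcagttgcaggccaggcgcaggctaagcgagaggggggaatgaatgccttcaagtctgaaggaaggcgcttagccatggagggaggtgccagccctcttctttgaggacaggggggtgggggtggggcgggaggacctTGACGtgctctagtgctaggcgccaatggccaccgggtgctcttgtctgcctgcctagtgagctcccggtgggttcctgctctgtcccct
Ppp1r3c: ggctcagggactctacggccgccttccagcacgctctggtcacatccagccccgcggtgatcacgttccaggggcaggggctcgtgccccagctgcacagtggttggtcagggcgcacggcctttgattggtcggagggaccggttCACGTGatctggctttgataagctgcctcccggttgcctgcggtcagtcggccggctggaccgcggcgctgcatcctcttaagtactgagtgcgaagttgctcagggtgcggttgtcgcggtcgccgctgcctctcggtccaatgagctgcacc
Pygl: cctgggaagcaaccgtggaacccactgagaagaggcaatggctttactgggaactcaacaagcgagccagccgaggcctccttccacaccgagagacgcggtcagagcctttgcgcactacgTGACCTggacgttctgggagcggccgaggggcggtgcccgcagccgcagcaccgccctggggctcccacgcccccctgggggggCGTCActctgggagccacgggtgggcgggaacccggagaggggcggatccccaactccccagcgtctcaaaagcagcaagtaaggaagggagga
Ppp1r3d: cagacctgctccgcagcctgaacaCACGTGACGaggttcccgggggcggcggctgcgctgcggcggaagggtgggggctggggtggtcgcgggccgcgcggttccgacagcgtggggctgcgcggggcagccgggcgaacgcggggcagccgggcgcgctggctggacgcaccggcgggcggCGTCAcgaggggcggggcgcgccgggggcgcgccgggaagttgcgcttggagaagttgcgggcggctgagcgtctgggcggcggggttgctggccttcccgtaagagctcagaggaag
Gyg: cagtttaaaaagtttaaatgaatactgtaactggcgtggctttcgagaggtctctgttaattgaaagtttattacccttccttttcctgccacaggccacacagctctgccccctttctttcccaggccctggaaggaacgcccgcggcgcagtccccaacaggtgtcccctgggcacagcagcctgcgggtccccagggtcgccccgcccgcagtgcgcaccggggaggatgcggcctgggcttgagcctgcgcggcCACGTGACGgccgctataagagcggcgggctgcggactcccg

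In the first 3 windows, of the genes with a maternal change, Ppp1r3g held TGACG 40 bases before the start, Ppp1r3c held an E-box 104 bases before it, and Pygl held TGACG at 44 and AGGTCA at 128 bases before it, both on the reverse strand. None of the 3 held the same set of motifs as another. Of 32851 mouse promoter windows, 20.8% hold TGACG, 7.15% CACGTG, 16.3% AGGTCA, 3.65% GTAAACA, 19% AGAACA and 13.6% TATAAA on either strand. The Ppp1r3d and Gyg windows each held an E-box that runs into TGACG as CACGTGACG. In Ppp1r3d it began 226 bases before the start, and in Gyg 9 bases into the transcript. This joined form, looked up after the windows were seen, occurs in 148 of the 32851 windows, or 0.451%. Ppp1r3d also held TGACG on the reverse strand, 68 bases before the start. The windows of Gbe1 and Ugp2 held none of the motifs. A match is a run of letters and not a bound site.

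In the livers of food-deprived mothers, the targeting subunits moved in opposite directions: Ppp1r3g rose about 10-fold, Ppp1r3c and Ppp1r3b fell 3.85-fold and 2.66-fold, and Ppp1r3d had a ratio near 1. Among the enzymes Gys2 rose 2.09-fold and Pygl fell 2.27-fold, while Gyg, Gbe1 and Ugp2 were not called. In all, 5 of the 9 genes were called, 2 higher and 3 lower; among the 16155 genes measured in mothers 1.56% were called higher and 1.88% lower. The median size of the log2 ratio, whatever its sign, was 1.06 over the 9 genes and 0.13 over all genes. It was 1.68 for the 4 targeting subunits (0.02 to 3.32) and 0.57 for the 5 enzymes (0.07 to 1.18). The ranges of the targeting subunits and the enzymes overlapped. Because the 9 genes were chosen with earlier results of these data known, their counts and sizes beside all genes are a description. With the log ratios centred on the median in place of loess, 2 genes passed, Ppp1r3b and Ppp1r3g, and the dye-swapped arrays then differed more (2.59 and -0.66 for Gys2).

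Ppp1r3g encodes a targeting subunit described in mouse liver as raised by fasting and active in glycogen storage after refeeding. Its probe (chr13:35386816-35386875, plus strand, positions of build mm7 as the array's files give them) had levels of 12.24 and 12.34 in FD mothers, against 8.79 and 9.15 in control mothers. In fetuses it had levels of 9.83 and 9.59 in the FD condition, against 9.86 and 9.68 in controls. The FD mothers stood above the other 3 pools, control mothers were lowest, and the fetal pools lay between with overlapping values. The maternal log2 ratio was 3.45 on the first array and 3.19 on the second, a mean of 3.32 or 9.99-fold, which placed Ppp1r3g at rank 9 from the top of 16155 genes. The arrays' gap of 0.26 was small beside the change.

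Ppp1r3c encodes the subunit known as protein targeting to glycogen (PTG), which binds synthase and phosphorylase as well as the phosphatase. Its brighter probe (chr19:36432652-36432711, minus strand, mm7) had levels of 9.53 and 9.30 in FD mothers, against 11.31 and 11.42 in control mothers. Fetal levels were 10.82 and 10.62 in the FD condition, against 10.72 and 10.72 in controls. Food-deprived mothers were thus lowest and control mothers highest, with the fetal pools between them. The maternal log2 ratios were -1.78 and -2.11, a mean of -1.94. A second, dimmer probe (chr19:36433982-36434041) had levels of 6.99 and 7.52 in FD mothers, against 8.08 and 7.99 in control mothers; its log2 ratios of -1.09 and -0.46 had the same sign but missed the call.

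Ppp1r3b encodes the liver-enriched subunit GL, which is inhibited by active phosphorylase. Its probe (chr8:34152525-34152584, plus strand, mm7) had levels of 8.10 and 8.34 in FD mothers, against 9.67 and 9.60 in control mothers. Fetal levels were 9.01 and 8.90 in the FD condition, against 9.09 and 9.27 in controls. The FD and control values overlapped in neither mothers nor fetuses, but the gap was far wider in mothers. The maternal log2 ratios were -1.57 and -1.26, a mean of -1.41, and the fetal ones -0.08 and -0.36. The fetal value of -0.08 lay within the spread of a single array. With median centring the fetal arrays gave 0.7 and -0.78, with opposite signs. With the scanner software's processed signals the maternal mean was -2.01.

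Ppp1r3d, a more widely expressed targeting subunit, lay close to background in the maternal channels. Its probe (chr2:178912202-178912261, minus strand, mm7) had levels of 7.03 and 7.01 in FD mothers, against 7.07 and 7.02 in control mothers. The lowest levels called well above background ranged from 5.06 to 6.58 over the channels, a range in which the offset added to the signals shrinks ratios. In fetuses the levels were 8.46 and 8.29 in the FD condition, against 8.16 and 8.28 in controls.

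**Figure D1:**
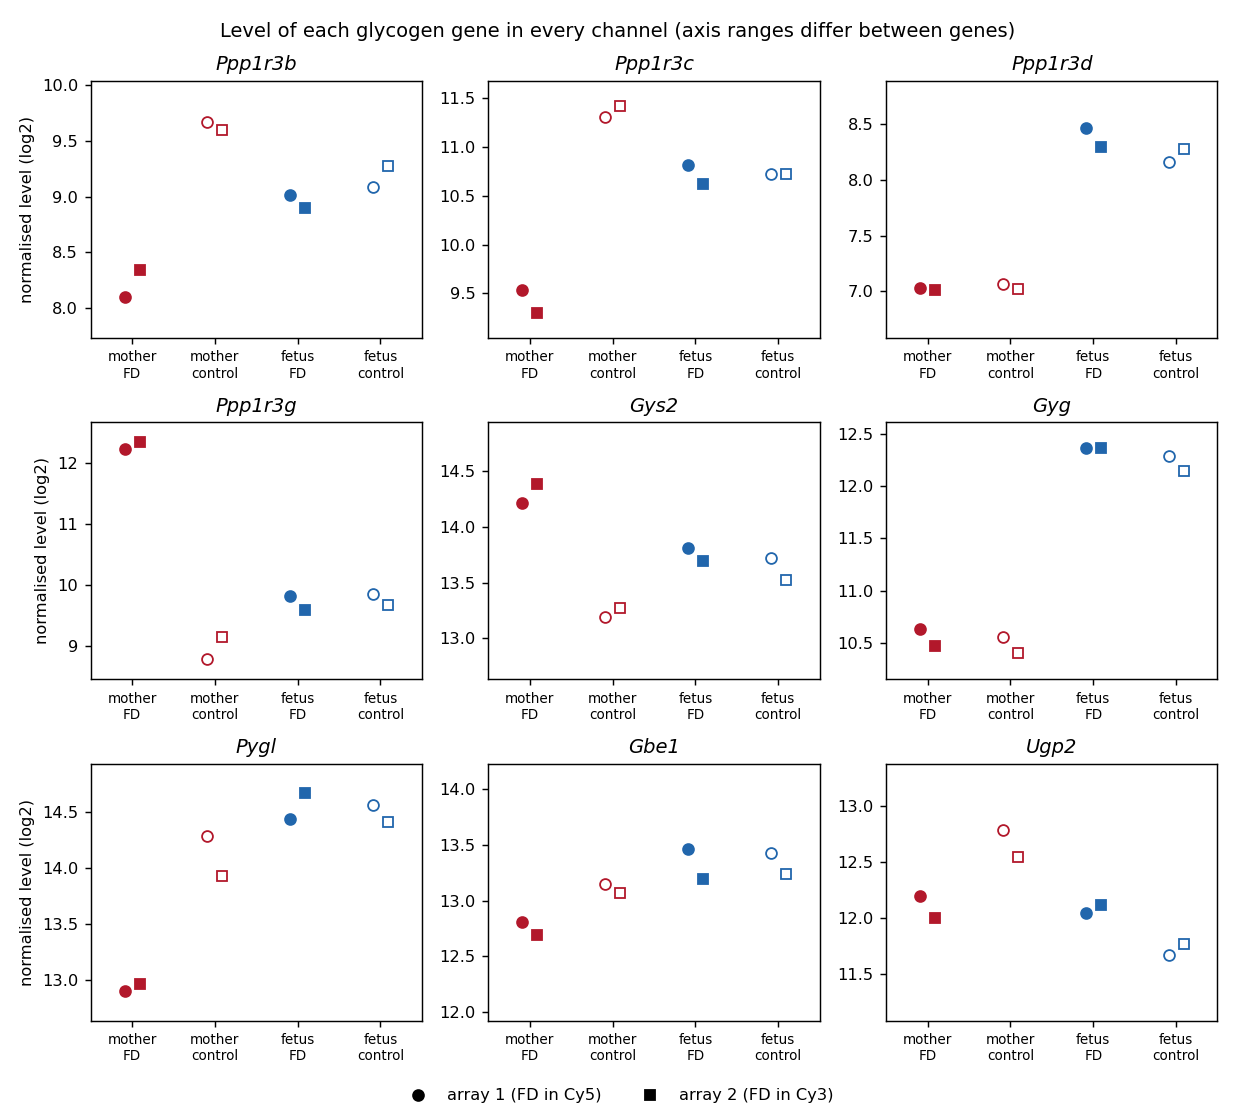
Normalised log2 level of the brightest probe of each gene in every channel, with mothers in red and fetuses in blue, FD filled and control open, the first array as circles and the second as squares. Levels of FD mothers stand apart from the other pools for Ppp1r3g (12.24 and 12.34), Gys2, Ppp1r3b, Ppp1r3c and Pygl, while FD and control fetuses lie close together.

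Of the enzymes, Gys2, the liver form of glycogen synthase, rose in mothers. Its probe (chr6:142510377-142510436, minus strand, mm7) had levels of 14.21 and 14.38 in FD mothers, against 13.19 and 13.27 in control mothers, with no overlap. The log2 ratios of 1.02 and 1.1 gave a mean of 1.06, close to the 2-fold line of the call. Pygl, the liver form of glycogen phosphorylase, fell. Its brighter probe (chr12:68131860-68131919, minus strand, mm7) had levels of 12.90 and 12.96 in FD mothers, against 14.29 and 13.93 in control mothers, and log2 ratios of -1.40 and -0.97. A dimmer probe, of another transcript accession (chr12:68145287-68145346), gave -0.39 and -0.09, and with the mean over both probes (-0.71) Pygl was no longer called.

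The other enzymes were not called in mothers. Ugp2, which makes UDP-glucose, had levels of 12.20 and 12.00 in FD mothers, against 12.79 and 12.55 in control mothers (probe within chr11:21275271-21280897, minus strand, mm7). Its log2 ratios were -0.59 and -0.54, and its other probe (chr11:21273287-21273346) gave -0.49 and -0.44, so all 4 values lay below 0. Gbe1, the branching enzyme, had levels of 12.81 and 12.69 in FD mothers, against 13.15 and 13.07 in control mothers (chr16:70563084-70563143, plus strand, mm7), with log2 ratios of -0.34 and -0.38. Gyg, the chain-starting glycogenin, had levels of 10.63 and 10.47 in FD mothers, against 10.56 and 10.40 in control mothers (chr3:19854035-19854094, minus strand, mm7). Its log2 ratio was 0.07 on each array, within the spread of a single array.

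**Figure D2:**
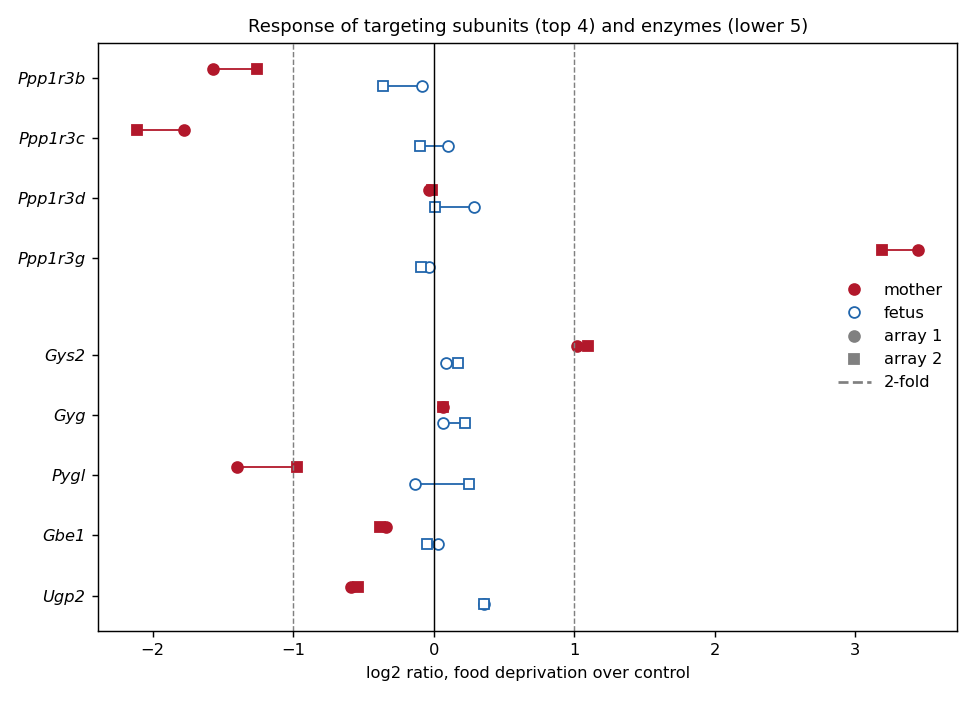
Log2 ratio of FD over control for each gene on the first (circles) and second (squares) array, mothers in red and fetuses as open blue symbols, with lines joining the arrays and dashed lines at 2-fold. In mothers Ppp1r3g lies at 3.45 and 3.19 and Ppp1r3c at -1.78 and -2.11, while every fetal value lies between -0.36 and 0.36.

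In fetal liver none of the 9 genes was called, where 0.465% of the 18064 measured genes were called higher and 0.266% lower. With so few genes called in fetuses, a count of 0 in 9 says little about these genes. Fetal log2 ratios ran from -0.22 for Ppp1r3b to 0.36 for Ugp2, with a median size of 0.13 over the 9 genes and 0.09 over all genes. Targeting subunits (median size 0.11) and enzymes (0.13) were alike in this. Ppp1r3g had fetal log2 ratios of -0.03 and -0.09, and Ppp1r3c 0.10 and -0.10, with opposite signs on the arrays.

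Ugp2 had the largest fetal value of the 9, with levels of 12.04 and 12.12 in the FD condition, against 11.67 and 11.77 in control fetuses. The log2 ratio was 0.36 on each array (1.28-fold), and the other probe gave 0.40 and 0.48. These 4 values agreed in sign and exceeded the spread of a single array while staying below the call. That spread does not measure variation between animals. A larger fetal log2 ratio, whatever its sign, was held by 8.04% of the 18064 genes. Gys2 had fetal levels of 13.81 and 13.69 in the FD condition, against 13.72 and 13.52 in controls. Pygl had 14.44 and 14.67 in the FD condition, against 14.57 and 14.41 in controls, with log2 ratios of opposite sign (-0.13 and 0.25). Gbe1 had 13.46 and 13.19 in the FD condition, against 13.43 and 13.24 in controls. For these 3 enzymes the fetal values of FD and control overlapped.

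The maternal and fetal responses were set against each other on arrays of equal dye orientation, as the maternal log2 ratio minus the fetal one. Of the 9 genes 4 were called, Ppp1r3g higher and Ppp1r3c, Pygl and Ppp1r3b lower, where 1.23% of 15605 genes were called higher and 1.76% lower. For Ppp1r3g the difference was 3.48 and 3.28, a mean of 3.38, the second highest of all genes measured in both. Ppp1r3c followed with -1.88 and -2.01, then Pygl with -1.26 and -1.22 and Ppp1r3b with -1.49 and -0.90. With the mean over its probes Pygl (-0.86) was not called. Gys2 (0.93 on each pair of arrays) and Ugp2 (-0.96 and -0.90) lay just inside the 2-fold line. Gbe1 (-0.35), Ppp1r3d (-0.17) and Gyg (-0.08) had smaller differences. Ugp2 was the only one of the 9 with a ratio beyond the spread of a single array on opposite sides of 0, below it in mothers (-0.57) and above it in fetuses (0.36). Larger ratios, whatever their sign, were held by 10.4% of genes in mothers and 8.04% in fetuses.

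**Figure D3:**
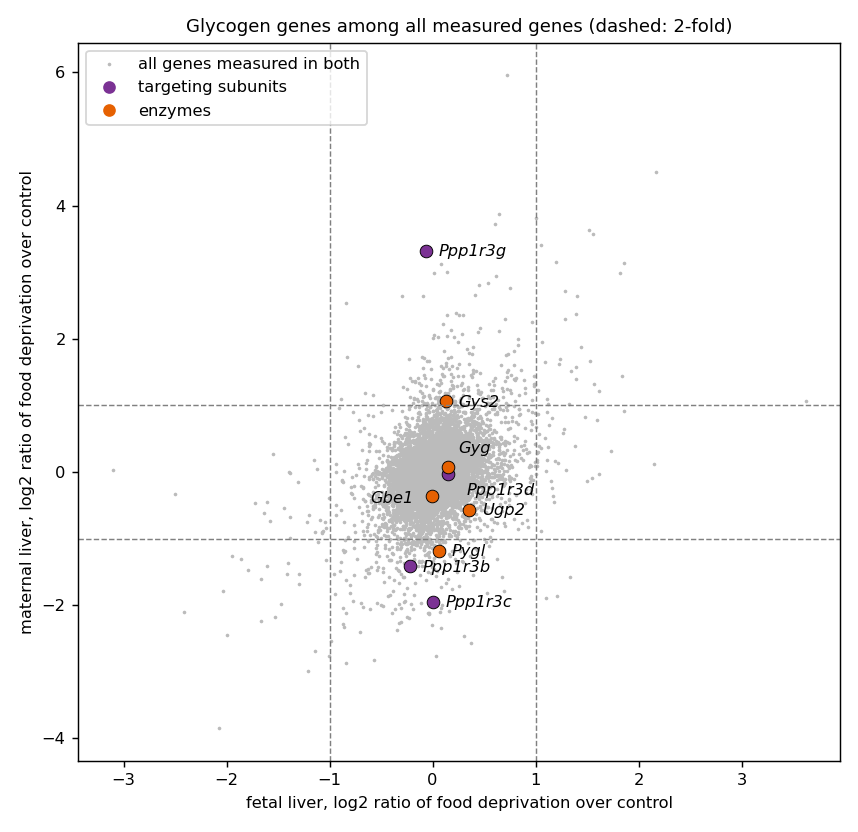
Mean log2 ratio of FD over control in maternal liver (vertical) against fetal liver (horizontal) for the genes measured in both, in grey, with the targeting subunits in purple and the enzymes in orange; dashed lines mark 2-fold. The 9 genes spread along the vertical axis, from -1.94 for Ppp1r3c to 3.32 for Ppp1r3g, and stay between -0.22 and 0.36 on the horizontal axis.

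Levels of control mothers were next set against those of control fetuses, probe by probe and dye by dye. Maternal and fetal RNA never shared an array, so these differences rest on normalisation between arrays. Across all genes the spread of a single dye pair's difference (SD from the pairs' disagreement) was 0.22. Gyg and Ppp1r3d were called, both lower in mothers, where 9.07% of 18094 genes were called higher and 10.2% lower in mothers; 2 of 9 is near that background. Gyg had levels of 10.56 and 10.40 in control mothers, against 12.29 and 12.14 in control fetuses, a log2 difference of -1.74 or 3.33-fold. Ppp1r3d had 7.07 and 7.02 in control mothers, against 8.16 and 8.28 in control fetuses, a difference of -1.18 that grew to -2.61 with the scanner software's processed signals and to -1.68 without the added offset. Its maternal signal is dim, and its log2 difference is the member value most open to the treatment of background.

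The remaining 7 genes missed the 2-fold call in control livers. Ugp2 was at 0.95 (1.12 and 0.78), Ppp1r3c at 0.64 and Ppp1r3b at 0.46, with control mothers above control fetuses. Ppp1r3g was at -0.80 (-1.07 and -0.53), Gys2 at -0.39, Pygl at -0.38 and Gbe1 at -0.22, with control mothers below. With a mean of 1.5-fold and the same sign on both dye pairs as the rule, 5 genes passed (Ugp2 and Ppp1r3c higher, and Gyg, Ppp1r3d and Ppp1r3g lower in mothers), where 35.7% of all genes did.

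**Figure D4:**
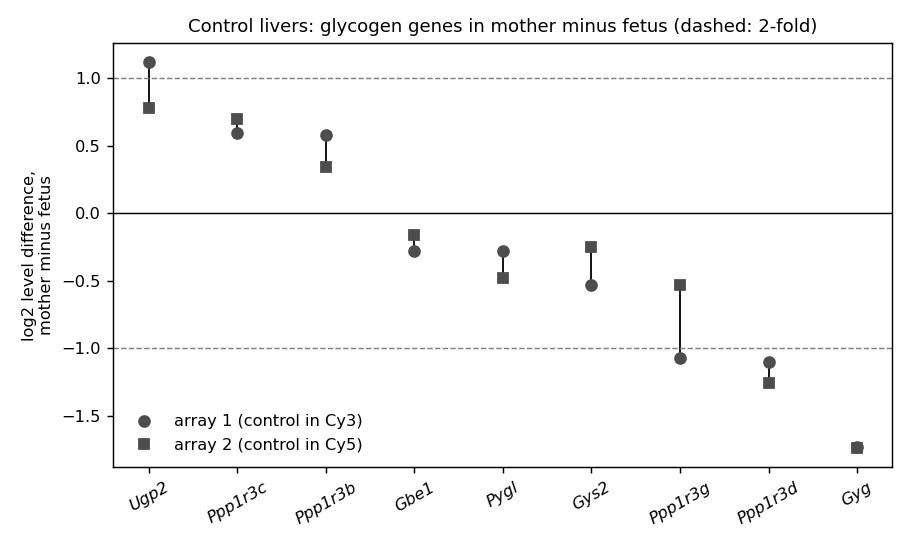
Log2 level of control mothers minus that of control fetuses for each gene, ordered by the mean, with the control in Cy3 as circles and in Cy5 as squares and dashed lines at 2-fold. Gyg (-1.74) and Ppp1r3d (-1.18) lie below the lower line on both pairs, Ugp2 (0.95) is nearest the upper one.

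For some of the genes the order of mothers and fetuses was not the same under food deprivation. The differences in the FD pools also rest on normalisation between arrays. Ppp1r3g was lower in control mothers than in control fetuses (-0.80), and in the FD pools it was higher in mothers, by 2.41 and 2.75 (mean 2.58, 5.98-fold). Ppp1r3c was 0.64 higher in control mothers and 1.30 lower on the log2 scale in FD mothers (-1.30) than in the fetuses of the same condition. Ppp1r3b turned in the same way, with -0.74 in the FD pools and 0.46 in controls, but with median centring its control difference was 0.04. Gys2 had 0.54 in the FD pools and -0.39 in controls (-0.02 with processed signals). Ugp2 had 0.02 in the FD pools and 0.95 in controls. Gyg (-1.81 in the FD pools), Ppp1r3d (-1.35), Pygl (-1.62) and Gbe1 (-0.57) were lower in mothers in both conditions. With processed signals the control difference of Gbe1 was 0.13 and that of Pygl was -0.05.

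Some markers of other cell types moved with these comparisons. Over all genes 1.88% were called lower in FD mothers, and 10.2% were called lower in control mothers than in control fetuses. In FD mothers 3 of 10 Kupffer cell markers (liver macrophages) fell, Adgre1, Cd5l and Folr2, with a list median of -0.56. The list's summed signals were 14700 and 13500 in FD mothers, against 24400 and 22500 in control mothers. All 10 were well above background in each channel. In fetuses none of the 10 was called (list median -0.01), and in control levels 2 were higher and 1 lower in mothers. In FD mothers 1 of 10 hepatocyte markers fell (Ttr), with a list median of 0.02. Their summed signals were 419000 and 355000 in FD mothers, against 346000 and 415000 in control mothers. In control livers 9 of 9 measured erythroid markers were lower in mothers, with a list median of -4.31 and summed signals of 39300 and 32500 in control mothers, against 223000 and 249000 in control fetuses; 6 of the 10 on the array were well above background in mothers and all 10 in fetuses. Muscle markers were lower in mothers for 6 of 10, with summed signals of 1150 and 1170 in control mothers, against 2770 and 3170 in control fetuses. Of these 10, only 4 and 5 were well above background in control mothers, and all 10 in control fetuses. The part of these cell types in the values of the 9 genes was not tested, and in bulk liver fewer cells of a type and less RNA per cell cannot be told apart.

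The rest of the pathway was described through 38 further genes in 7 lists by role. In mothers 30 were measured, 2 were called higher and 0 lower, with a median log2 ratio of -0.05. In fetuses 33 were measured, 1 was called higher and 1 lower, with a median of -0.02. In the difference between mothers and fetuses none of 29 was called. In control levels 10 of 31 were called, 4 higher and 6 lower in mothers. Over all genes the called share was 3.44% in mothers, 0.731% in fetuses, 2.99% in the difference and 19.3% in control levels. Neither of the phosphatase's catalytic subunits measured in mothers was called; Ppp1cc had 0.44, the larger value. Of the other targeting subunits Ppp1r3a and Ppp1r3e were measured in neither comparison, and Ppp1r3f had 0.04 in fetuses.

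Among the other genes of breakdown, which include the phosphorylase kinase subunits, none of 8 measured genes was called in mothers or in fetuses. None of 6 kinases acting on synthase was called. Prkaca, a catalytic subunit of protein kinase A, had the largest values among them, -0.61 in mothers and -0.20 in fetuses. Of the glycogen handling genes, Stbd1 had -0.37 in mothers and Nhlrc1 -0.06 in fetuses. The brain phosphorylase Pygb had -0.09 in mothers and -0.54 in fetuses, and its control level in mothers minus fetuses was -1.98 on the log2 scale.

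The other called genes described here lay among the genes of glucose 6-phosphate supply and release. G6pc, the phosphatase that frees glucose from glucose 6-phosphate, rose in both, by log2 ratios of 1.37 and 1.65 in mothers and 1.35 and 1.33 in fetuses. Slc37a4, which carries glucose 6-phosphate to that enzyme, rose in mothers (0.90 and 1.27) and had 0.88 and 1.06 in fetuses, just below the call. G6pc and Slc37a4 thus had fetal values of about the maternal size. The brightest probes of the 9 glycogen genes did not exceed 0.36 in fetuses, and the other Ugp2 probe gave 0.40 and 0.48. The difference between these 2 genes and the 9 was not tested.

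**Figure D5:**
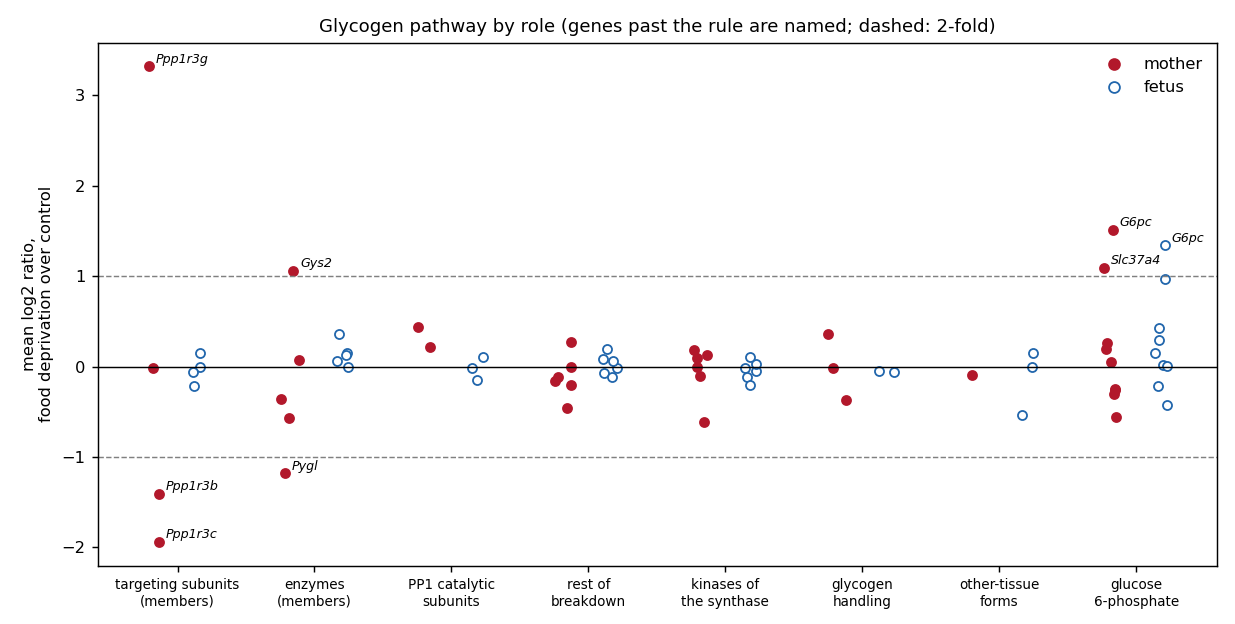
Mean log2 ratio of FD over control for each measured gene by role, mothers in red and fetuses as open blue circles, with called genes named and dashed lines at 2-fold; points are spread sideways for sight. Calls in mothers lie among the targeting subunits, the enzymes and the glucose 6-phosphate genes, and the fetal call shown is G6pc (1.34); genes not reported here are not drawn.

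The genes with the pattern most like Ppp1r3g and Ppp1r3c were found by Euclidean distance over the log2 ratios of the 4 arrays, among 12170 other genes. Nearest to Ppp1r3g were Cgref1 (distance 0.369), Ehhadh (0.626) and Gadd45g (0.651); Cgref1 had maternal log2 ratios of 3.23 and 3.02 and fetal ones of 0.04 and 0.13. Nearest to Ppp1r3c were Akr1c14 (0.285), Dct (0.392) and Bdh2 (0.408), and Akr1c14 had -2.04 and -2.22 in mothers and 0.07 and -0.13 in fetuses. All share the 4 arrays and the pools, and the distances are a description.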

How the data were processed

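Liver RNA pools of FD and control mothers and fetuses were hybridised on 4 two-colour arrays of 1 slide, with dyes swapped. The deposited scanner files hold intensity values, per the file headers: spot mean, local background median and processed signals, from which the scanner software had removed background and dye differences. The Agilent Feature Extraction version is 9.5.1.1 in the headers, whereas 9.5.3.1 stands in the submitters' processing notes. The authors' deposited series table holds other values, whose size matched red over green processed signal (Pearson correlations of log values were 0.9999 or more); its column medians are -0.92, 0.94, -0.88 and 0.88, the sign goes with the dye orientation and was dropped, and its meaning stays unknown.

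With R 4.3.3 and limma 3.58.1, intensities were corrected by normexp (offset 50), normalised by loess within arrays and, for levels, by Aquantile between arrays. Outlier-flagged spots (215 to 257 per array) were left out and spots of a probe averaged. A probe was measured when the FD or the control channel was well above background on both arrays (53.2% to 69.7% of probes per channel); the brightest measured probe stood for a gene. Probes were named by accession through a RefSeq table of assembly GRCm38.p6 (22951), and the other 18223 kept the file's name. The offset shrinks ratios of dim spots. The arrays of a comparison correlated at 0.864 in mothers and 0.667 in fetuses across genes. With the second array's sign unturned no gene was called in either. In control levels, with the sign of the second dye pair reversed, 27 of 18094 genes were called. The call rule was tested on simulated data. Named genes were all 9 members and, of the other lists, called genes and the gene of each list with the largest mean in each comparison. Members and lists were chosen with earlier results of these data known. Some genes of the lists are counted but not reported here. The number of arrays limits the precision. Tried alternatives were the background correction, normalisation, filter, probe rule, call rule, each array alone and the deposited table. Figures were drawn with matplotlib 3.10.9.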

Additional observations from a re-analysis of the deposited data

Results flagged for a closer look

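For 3 of the 9 genes the maternal and fetal log2 ratios lay on opposite sides of 0 on every array, which is why they are listed here. The difference was not tested, and the share of all genes with such signs was not counted. Ppp1r3g had a maternal minus fetal difference of 3.38 (3.32 in mothers and -0.06 in fetuses). Its fetal values lay within the spread of a single array, and with median centring its fetal mean was 0.14. Ugp2 had -0.93 (-0.57 in mothers and 0.36 in fetuses). Ppp1r3d had -0.17 (-0.02 in mothers and 0.15 in fetuses), values near the spread of a single array.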

How the results depend on the processing

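No paired analysis was possible because the replicate number goes with the dye orientation, the dye-swapped arrays count as 1 replicate, and no test was made. None of the 9 genes was called in fetuses under any setting tried. The maternal count was 5, and 4 or 5 with each alternative except median centring in place of loess, where it was 2 (Ppp1r3b and Ppp1r3g); there Ppp1r3c had -0.57 and -3.35 on the arrays and Gys2 2.59 and -0.66, with means of -1.96 and 0.96. Pygl was not called with the mean over probes (-0.71) or on the second array alone (-0.97). The maternal minus fetal count was 4, with a range of 3 to 6; without the first arrays Ppp1r3b (-0.90) missed the call, as Pygl (-0.86) did with the mean over probes. In control livers the count of 2 became 4 with processed signals (Ppp1r3g lower and Ugp2 higher in mothers) and 5 with the 1.5-fold rule. It was 3 with median centring (Ppp1r3g lower in mothers), and 2 to 4 on each array alone, 4 without the second arrays. Quantile normalisation of the channels, chosen after seeing the data, left it at 2. No called member's mean changed sign under any alternative tried. Over all genes the called share in mothers was 3.44%, 9.06% with processed signals, 9.14% from the deposited table, 9.95% with the 1.5-fold rule, 1.93% with no filter and 0.786% with median centring; in fetuses it was 0.731%, and 2.25%, 2.26% and 2.71% with the first 3 of these and 0.46% with no filter; in the difference it was 2.99%, and 7.71%, 7.68%, 9.8% and 1.7%; in control levels it was 19.3%, and 40.8% with processed signals, 35.7% with the 1.5-fold rule and 12.2% with no filter. With median centring the share of calls that were higher was 74.7% in fetuses (63.6% as reported), 35.4% in mothers (45.4%), 16.1% in the difference (41.2%) and 32.2% in control levels (47.0%). The median of all genes in control levels was -0.16 with processed signals and -0.08 with median centring (0.02 as reported); with median centring it was -0.11 in the difference (-0.02 as reported) and 0.09 in fetuses (0 as reported). Signal over background limits Ppp1r3d, which was not measured in mothers at 10 SD above the negative controls. The cause of these shifts was not tested.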
